A study of Mus musculus with 6 samples.

Results

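The forkhead (Fox) genes encode transcription factors that bind DNA through a winged-helix domain, and each is named by a letter for its subfamily and a number. All genes whose RefSeq symbol was Fox, a letter from a to s and a number were taken, which gave 44 genes on the array, of 22911 genes with a named probe. They were measured by 49 probes: 39 genes had 1 probe and 5 genes (Foxm1, Foxn3, Foxo1, Foxo3 and Foxp1) had 2, of which the brighter stood for the gene. Expression was read in 6 mouse lung RNA samples, each on its own single-colour (Cy3) Agilent array. Myofibroblasts were CD49e+ Sca1- Lin- cells sorted from the lungs of male mice given bleomycin, a drug that injures the lung and leads to fibrosis. Steady-state fibroblasts were CD140a+ Lin- cells sorted from untreated male lungs, and homogenates were whole untreated male lungs, with every cell type of the organ. Each group had 2 arrays. The labels give sets of 50000 cells and 5.8 ng of RNA for labelling, but no strain or age. They leave unsaid whether replicates were separate mice, so a p-value here is measured against a spread that may be technical. The sort gate and bleomycin changed together, so their parts in a difference between the sorted groups cannot be told apart.

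Within the lung, forkhead factors are known to divide the work among lineages. Foxf1 and Foxf2 act in the mesenchyme downstream of Hedgehog signals from the epithelium, Foxa1 and Foxa2 open chromatin in the epithelium, and Foxj1 switches on the genes of motile cilia. Foxm1 drives genes of mitosis in dividing cells, and the Foxo factors, which AKT kinase keeps out of the nucleus, promote genes of cell cycle arrest and stress resistance.

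Levels are given as the relative signal, the processed signal of a probe divided by the 75th percentile of its array. They can be set against each other between arrays but not between probes. A probe was detected where the scanner software marked it well above background. Whether such signal came from the named transcript was not tested. Differences are log2 differences ± SE of a limma fit to all 6 arrays, and a gene was called where its Benjamini-Hochberg adjusted p over all genes tested was under 0.05. The arrays had 65.5% to 73.4% of spots well above background and no saturated spot, and their number, 2 a group, limits the precision. The fibroblast arrays differed most from each other: 23.5% of genes detected on both were more than 2-fold apart, against 7.84% on the myofibroblast arrays and 2.83% on the homogenate arrays. Among forkhead genes detected on both arrays of a group, these shares were 9 of 31 in fibroblasts, 4 of 31 in myofibroblasts and 1 of 35 in homogenates. The labels held up against the sort markers: in myofibroblasts against fibroblasts the CD49e gene Itga5 was higher by 4.01 ± 0.35 (adjusted p = 0.00324), Ly6a, which encodes Sca1, was lower by 1.94 on the log2 scale (-1.94 ± 0.32, adjusted p = 0.0168), and Pdgfra, which encodes CD140a, was lower as well (-2.36 ± 0.39, adjusted p = 0.0180). The 12 listed mesenchymal genes were detected on all 6 arrays. Of 12 macrophage and granulocyte genes, Chil3 and Marco were higher in myofibroblasts than in fibroblasts, and 10 were lower in each sorted group than in homogenates. The summed relative signal of the list was 185 and 177 in myofibroblasts, 193 and 176 in fibroblasts, and 515 and 528 in homogenates. In the sorted samples that sum was nearly all Itgam (163, 154, 173 and 151, against 136 and 143 in homogenates) and Csf1r, the 2 genes not called, and Mrc1, Ear2, S100a8 and S100a9 were detected on no sorted array. Of 6 mesothelial genes, 2 could be tested between the sorted groups and neither was called, and the sums of the 6 were 0.568 and 0.341 in myofibroblasts, 1.05 and 0.442 in fibroblasts, and 12.1 and 11.7 in homogenates. The part of such cells in the forkhead values was not tested.

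Most forkhead genes could be read in the lung. On both arrays of a group, 31 of 44 were detected in myofibroblasts, 31 in fibroblasts and 35 in homogenates, or 70.5%, 70.5% and 79.5%. Over all named genes the same shares were 66.0%, 65.7% and 72.7%. A set of 27 forkhead genes was detected on all 6 arrays. Foxd1 was detected on both arrays of fibroblasts and of no other group, and 6 genes (Foxa1, Foxd4, Foxj1, Foxn4, Foxo4 and Foxo6) on both of homogenates alone. Foxc2 and Foxl1 were detected on both arrays of each sorted group but on 1 of 2 homogenate arrays. Foxb1 and Foxr2 were detected on no array, and Foxa3, Foxi2 and Foxp2 on some array but never on both of a group, so these 5 genes were not tested.

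**Figure D1:**
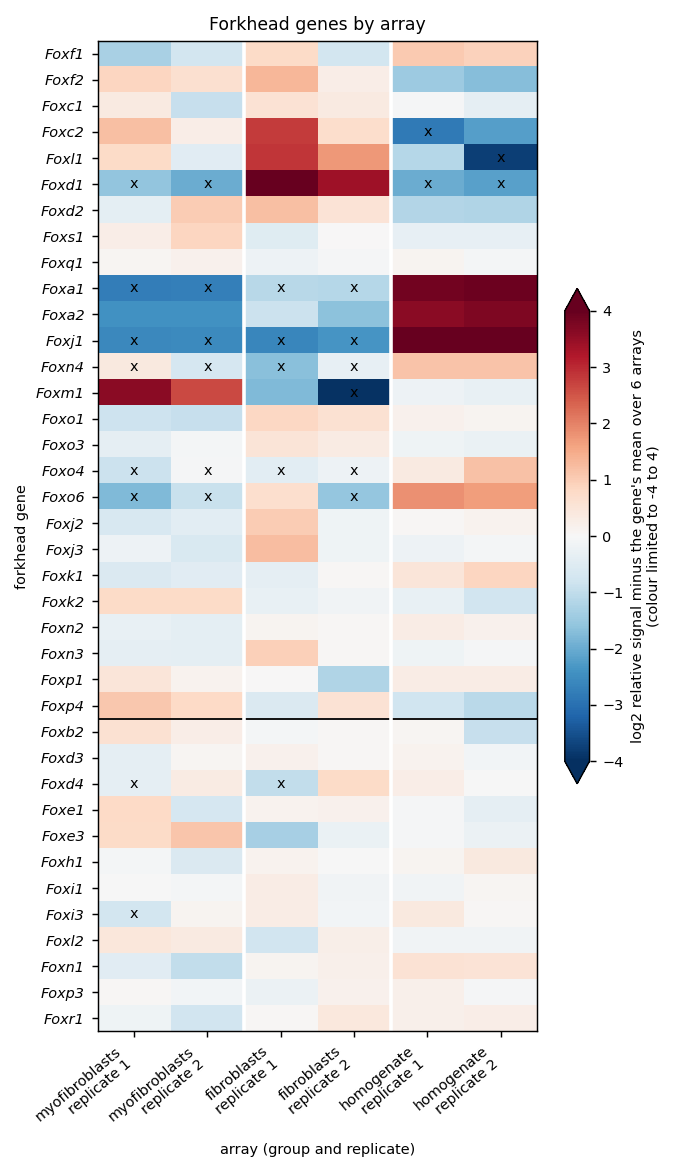
38 forkhead genes detected on both arrays of at least 1 group, with 1 column per array; colour is the log2 relative signal minus the gene's mean over the 6 arrays, limited to -4 to 4, and x marks a probe not well above background. Foxd1 is dark in the fibroblast columns, Foxm1 in the myofibroblast columns, and Foxa1, Foxa2 and Foxj1 in the homogenate columns.

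Between the sorted groups, 4 forkhead genes were called. Foxm1 and the lens factor Foxe3 were higher in myofibroblasts, while Foxd1, known in the mouse for stromal progenitors of the kidney and lung, and Foxo1 were lower. These were 4 of the 33 forkhead genes tested, or 12.1%, against 17.2% of all 16008 genes tested. By direction, 2 were higher, beside 9.21% of all genes, and 2 were lower, beside 8.01% of all genes, so forkhead genes were not called more often than other genes. The median difference of the 33 was -0.39, against -0.06 over all genes. The arrays of the sorted groups did not overlap in 22 of the 33, beside 63.1% of all genes tested. Under the scaling of the authors' deposited table, which shifts the median of all genes by -0.41, 1 forkhead gene was called higher and 5 lower, and under median scaling, which shifts it by 0.14, 3 were higher and 2 lower.

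Both sorted groups read far below whole lung for the epithelial factors Foxa1 and Foxa2 and the ciliary factor Foxj1. In fibroblasts, 8 of 38 forkhead genes tested (21.1%) differed from homogenates, against 19.9% of all genes: 5 were higher (Foxc2, Foxd1, Foxd2, Foxf2 and Foxl1), beside 8.09% of all genes, and 3 were lower (Foxa1, Foxa2 and Foxj1), beside 11.8%. In myofibroblasts, 13 of 38 (34.2%) differed from homogenates, against 26.9% of all genes: 5 were higher (Foxc2, Foxf2, Foxk2, Foxm1 and Foxp4), beside 11.9% of all genes, and 8 were lower (Foxa1, Foxa2, Foxf1, Foxj1, Foxk1, Foxn1, Foxo1 and Foxo6), beside 15.0%. That split turned with the scaling: it was 3 higher and 12 lower with the authors' deposited table, 7 and 6 with quantile normalization, and 8 and 3 with median scaling, which shift the median of all genes by -0.50, 0.10 and 0.40. Of the 10 myofibroblast calls other than Foxa1, Foxa2 and Foxj1, none was kept when either homogenate array was left out. The 2 sorted groups share the homogenate arrays as their reference. In whole tissue and sorted cells alike, fewer cells of a type and less RNA per cell cannot be told apart.

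**Figure D2:**
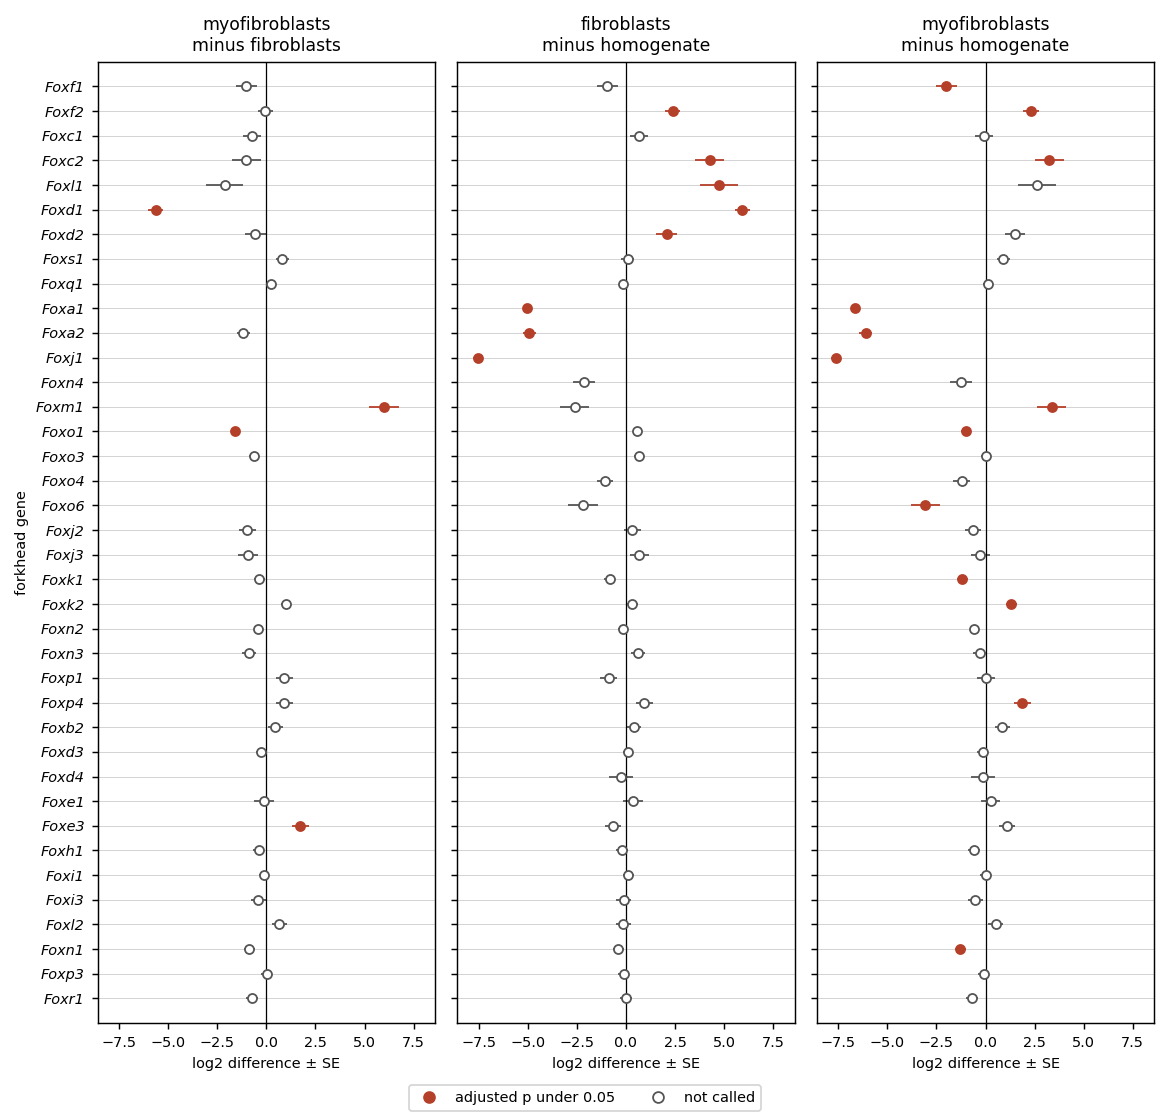
Log2 differences of 38 tested forkhead genes, 1 gene per row, with bars of 1 SE; filled points were called (adjusted p under 0.05, limma) and open points were not. Foxd1, Foxm1, Foxo1 and Foxe3 are filled in the left panel, and Foxa1, Foxa2 and Foxj1 lie farthest to the left in both panels against homogenate.

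Foxd1 had the widest gap between the sorted groups in the downward direction. Its relative signal was 0.0130 and 0.00988 in myofibroblasts, against 0.776 and 0.408 in fibroblasts, and 0.00982 and 0.00863 in homogenates. Only the fibroblast arrays were well above background, and no value of another group came near them. The difference of myofibroblasts from fibroblasts was -5.63 ± 0.38 (adjusted p = 0.00178), which, with myofibroblasts below background, is at least 13.9-fold lower. Fibroblasts exceeded homogenates by 5.93 ± 0.38 (adjusted p = 0.000524), or at least 14.4-fold. Both calls were kept under all 18 alternative settings in which Foxd1 was tested. With normexp background correction, which raises dim values, these differences were -1.44 and 1.70. The RefSeq promoter window of Foxd1 (250 bases before the start to 50 after it, on the plus strand of chr13:98353995-98354294, GRCm38.p6) is shown because this is the gene that set fibroblasts apart; capitals mark a CCAAT box and a GC box (CCGCCC), and it holds no TATA box of the letters TATAAA.
Foxd1: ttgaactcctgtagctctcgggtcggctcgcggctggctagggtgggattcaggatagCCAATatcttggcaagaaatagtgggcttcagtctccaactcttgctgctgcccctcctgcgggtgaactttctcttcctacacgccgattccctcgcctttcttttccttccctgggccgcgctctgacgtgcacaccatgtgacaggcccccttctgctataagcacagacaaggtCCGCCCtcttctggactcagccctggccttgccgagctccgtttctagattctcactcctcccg

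Foxd2, its relative from the same subfamily, was read in all groups. Its relative signal was 0.134 and 0.356 in myofibroblasts, 0.403 and 0.257 in fibroblasts, and 0.0780 and 0.0757 in homogenates. The sorted groups overlapped with each other and both lay above homogenates. Fibroblasts exceeded homogenates by 2.07 ± 0.52 (adjusted p = 0.0441), a call lost without any 1 of the fibroblast or homogenate arrays (adjusted p up to 0.194), and myofibroblasts by 1.51 ± 0.52 (adjusted p = 0.0833). Foxd3, a neural crest factor, ranged from 0.275 to 0.397 over the 6 arrays, with no call. Foxd4 was between 0.0252 and 0.0848 in the sorted samples, where it was detected on 1 array of each group, and 0.0604 and 0.0494 in homogenates.

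The Foxf pair, the forkhead factors best known from lung mesenchyme, did not move together. Foxf1 had a relative signal of 4.24 and 6.28 in myofibroblasts, against 17.8 and 6.26 in fibroblasts, and 21.4 and 19.7 in homogenates. Myofibroblasts lay below homogenates on both arrays (-1.99 ± 0.53, adjusted p = 0.0440; -1.59 and 0.0902 with median scaling), while fibroblasts spanned the range between them. Foxf1 is also expressed in lung endothelium, and 17 of 18 listed endothelial genes were lower in each sorted group than in homogenates; their summed relative signal was 2.03 and 2.71 in myofibroblasts, 7.05 and 3.12 in fibroblasts, and 167 and 157 in homogenates, and their part in the Foxf1 difference was not tested. Kdr, Tie1, Emcn, Sox17 and Robo4 were detected on none of the 4 sorted arrays. Between the sorted groups, 11 of the list were tested. Sox18 (3.48 ± 0.40), Egfl7 (3.02 ± 0.63) and Erg (1.72 ± 0.33) were higher in myofibroblasts. Their relative signal there was 0.136 and 0.167, 0.0827 and 0.208, and 0.103 and 0.133. Fibroblasts were below background for these genes, with a lowest detected signal of 0.0395 and 0.0465, so the sizes of these differences are uncertain. Tek was lower (-5.31 ± 1.15), at 0.00831 (not detected) and 0.112 in myofibroblasts against 1.37 and 1.07 in fibroblasts. The difference in Foxf1 between myofibroblasts and fibroblasts was -1.03 ± 0.53 (95% interval -2.36 to 0.30, adjusted p = 0.221). It was -1.78 without the second fibroblast array and -0.28 without the first, so its size hung on which fibroblast array was kept.

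Foxf2, which shares its DNA-binding domain with Foxf1, had a relative signal of 11.3 and 9.63 in myofibroblasts, against 15.5 and 7.47 in fibroblasts, and 2.26 and 1.91 in homogenates. All 4 sorted samples were above both homogenates. Myofibroblasts exceeded homogenates by 2.33 ± 0.40 (adjusted p = 0.0115) and fibroblasts by 2.37 ± 0.40 (adjusted p = 0.0122). Both calls were lost without either homogenate array, and the myofibroblast call also without either myofibroblast array. Between the sorted groups the difference was -0.05 ± 0.40 (95% interval -1.05 to 0.95, adjusted p = 0.941). The promoter window of Foxf2 (plus strand of chr13:31625566-31625865, GRCm38.p6) is shown as that of a mesenchymal forkhead gene called higher in both sorted groups and detected on all 6 arrays; 2 GC boxes (GGGCGG) are in capitals, and its GC content is 71.3%.
Foxf2: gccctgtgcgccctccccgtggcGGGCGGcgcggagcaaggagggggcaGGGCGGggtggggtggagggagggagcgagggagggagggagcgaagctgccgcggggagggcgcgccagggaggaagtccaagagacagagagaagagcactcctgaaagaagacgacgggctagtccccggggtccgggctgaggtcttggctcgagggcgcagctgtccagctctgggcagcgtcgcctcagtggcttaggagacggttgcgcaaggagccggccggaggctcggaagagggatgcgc

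The Foxf genes lie in chromosomal clusters with other forkhead genes. In the RefSeq order of protein-coding genes on chromosome 8, Foxf1, Mthfsd, Foxc2 and Foxl1 follow each other. Foxc2, a factor of mesoderm and lymphatic vessels, had a relative signal of 0.566 and 0.296 in myofibroblasts, 1.72 and 0.401 in fibroblasts, and 0.0347 (not detected) and 0.0534 in homogenates. It was higher than in homogenates by 3.25 ± 0.75 in myofibroblasts (adjusted p = 0.0283) and by 4.27 ± 0.75 in fibroblasts (adjusted p = 0.0138). In myofibroblasts this was the opposite side from Foxf1, which in fibroblasts was not called against homogenates (-0.96 ± 0.53, adjusted p = 0.281). With normexp background correction the Foxc2 differences were 1.28 and 1.99, and neither was called. The Foxc2 call in fibroblasts was also lost without either homogenate array. Foxl1, a marker of subepithelial mesenchymal cells in the gut, read 0.381 and 0.162 in myofibroblasts, 1.59 and 0.738 in fibroblasts, and 0.1004 and 0.0163 (not detected) in homogenates. Fibroblasts exceeded homogenates by 4.75 ± 0.96 (adjusted p = 0.0221), a call lost without the first fibroblast array (adjusted p = 0.109) or the second homogenate array (adjusted p = 0.0651), or with array weights (adjusted p = 0.0649). The samples of myofibroblasts lay below those of fibroblasts without overlap, as 63.1% of all genes tested had no overlap there. The difference was -2.13 ± 0.96 (adjusted p = 0.172).

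On chromosome 13, Foxq1, Foxf2 and Foxc1 are neighbours with no protein-coding gene between them. Foxq1, a factor of hair and stomach epithelium in the mouse, was nearly level over the arrays, at 1.16 and 1.25 in myofibroblasts, 0.963 and 1.078 in fibroblasts, and 1.19 and 1.05 in homogenates. Foxc1, the close relative of Foxc2, read 0.144 and 0.0592 in myofibroblasts, 0.164 and 0.142 in fibroblasts, and 0.109 and 0.0868 in homogenates. Neither was called in a comparison, so Foxf2 alone of the 3 was called. Foxs1 read 0.603 and 0.919 in myofibroblasts, above the 0.358 and 0.507 of fibroblasts and the 0.402 and 0.400 of homogenates, with differences of 0.81 ± 0.33 (adjusted p = 0.142) and 0.89 ± 0.33 (adjusted p = 0.0985).

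Other genes of Hedgehog signalling and Foxf-dependent mesenchyme were read from a list of 20. Between myofibroblasts and fibroblasts, 0 were higher and 5 lower of 18 tested, with a median difference of -0.78 against -0.06 over all genes. The lower ones included Fendrr, a noncoding RNA gene beside Foxf1 (-2.91 ± 0.57), the Hedgehog targets Hhip (-2.76 ± 0.40) and Gli1 (-2.44 ± 0.45), and the growth factor gene Bmp4 (-1.87 ± 0.32). None of the 5 was called without the first myofibroblast array. Between fibroblasts and homogenates, 10 were higher and 1 lower of 19 tested, with a median of 1.81 against 0.03; Gli1 (3.49 ± 0.45), Fgf10 (3.21 ± 0.38), Hhip (2.82 ± 0.40) and Wnt2 (2.71 ± 0.50) were among the higher. Without the second homogenate array, 4 of the list were called higher. Between myofibroblasts and homogenates, 4 were higher and 3 lower of 19 tested, with Gli3 at 2.96 ± 0.30 and Fendrr at -4.42 ± 0.57; without single arrays these counts were 2 to 10 and 1 to 3, with 2 higher left without either myofibroblast array or the second homogenate array, and 1 lower without either homogenate array. Fendrr had a relative signal of 0.452 and 0.233 in myofibroblasts and 6.77 and 7.13 in homogenates, so it lay on the same side as Foxf1.

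**Figure D3:**
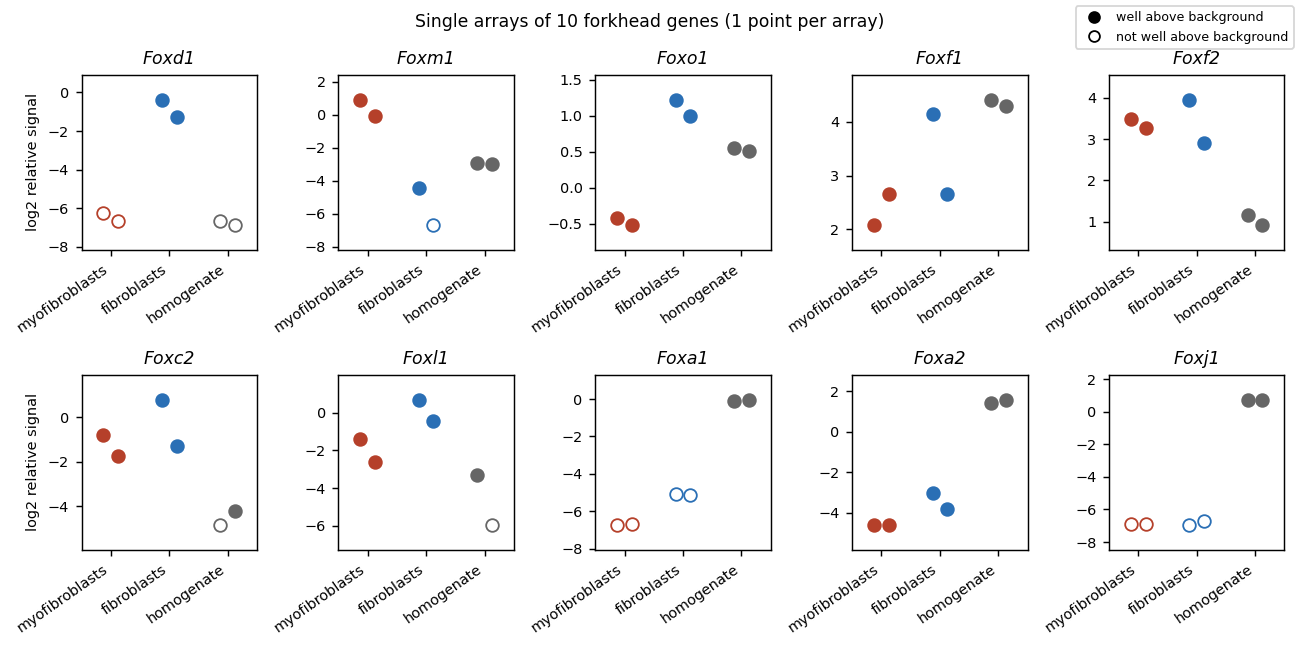
Log2 relative signal of 10 forkhead genes on the single arrays, with 1 point per array, 2 arrays per group, open where the probe was not well above background; the vertical scale differs between panels. Foxd1 is well above background on the fibroblast arrays alone, Foxo1 separates all 3 groups, and the fibroblast points of Foxf1 lie apart.

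The epithelial factors Foxa1 and Foxa2 were high in whole lung. Foxa1 had a relative signal of 0.00941 and 0.00968 in myofibroblasts and 0.0296 and 0.0289 in fibroblasts, none of them detected, against 0.941 and 0.973 in homogenates. It was at least 23.7-fold lower in myofibroblasts (-6.65 ± 0.23, adjusted p = 0.000119) and at least 22.3-fold lower in fibroblasts (-5.03 ± 0.23, adjusted p = 0.000211). Foxa2 was still detected in sorted cells, at 0.0416 and 0.0415 in myofibroblasts and 0.123 and 0.0712 in fibroblasts, against 2.71 and 2.98 in homogenates. In myofibroblasts it lay close to the lowest detected signal of the arrays, 0.0400 and 0.0408. The differences of Foxa2 from homogenates were -6.10 ± 0.33 (adjusted p = 0.000313) and -4.93 ± 0.33 (adjusted p = 0.000577), and that between myofibroblasts and fibroblasts was -1.17 ± 0.33 (adjusted p = 0.0646). Under the alternative settings the difference between the sorted groups ranged from -1.58 to -0.23. Foxa3 was detected on 1 homogenate array, at 0.280, and on no other. The promoter window of Foxa1 (minus strand of chr12:57546062-57546361, GRCm38.p6) is shown because it alone among the forkhead windows held the core forkhead motif GTAAACA; capitals mark that motif, 1 CCAAT box and 3 GC boxes (CCGCCC or GGGCGG).
Foxa1: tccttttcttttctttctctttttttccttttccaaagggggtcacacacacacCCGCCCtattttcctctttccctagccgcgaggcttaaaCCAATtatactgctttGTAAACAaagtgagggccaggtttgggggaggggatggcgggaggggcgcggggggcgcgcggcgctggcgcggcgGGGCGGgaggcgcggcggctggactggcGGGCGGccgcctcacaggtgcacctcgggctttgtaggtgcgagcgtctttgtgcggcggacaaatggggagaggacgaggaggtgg

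Genes of lung epithelium moved with the Foxa pair. Of 17 tested from a list of 18, 15 were lower in myofibroblasts than in homogenates, with a median of -4.58 against -0.01 over all genes, and 15 were lower in fibroblasts than in homogenates, with a median of -4.36 against 0.03. The surfactant gene Sftpc was lower by 8.71 on the log2 scale in myofibroblasts (-8.71 ± 0.23) and lower by 7.37 in fibroblasts (-7.37 ± 0.23). Between the sorted groups, 3 of 13 tested were lower in myofibroblasts: Scgb1a1 (-2.81 ± 0.37), Sftpc (-1.34 ± 0.23) and Scgb3a2 (-1.33 ± 0.23), all products of epithelial cells. The summed relative signal of the list was 14.3 and 20.5 in myofibroblasts, 126 and 76.9 in fibroblasts, and 924 and 910 in homogenates. Scgb1a1 alone made up 10.4 and 15.9 of it in myofibroblasts and 118 and 69.0 in fibroblasts, while Nkx2-1, Krt18, Aqp5 and Cldn18 were not called between the sorted groups (0.54, -0.20, -0.11 and -0.09). The part of epithelial RNA in the Foxa2 values was not tested. Cdh1 and Agr2 were detected on none of the sorted arrays.

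Foxj1, the master gene of motile cilia, was detected in homogenates alone. Its relative signal was 0.00827 and 0.00835 in myofibroblasts and 0.00813 and 0.00954 in fibroblasts, none of them detected, against 1.61 and 1.65 in homogenates. It was at least 40.4-fold lower in myofibroblasts (-7.62 ± 0.24, adjusted p = 0.000119) and at least 38.1-fold lower in fibroblasts (-7.53 ± 0.24, adjusted p = 0.000127). With normexp these differences were -2.92 and -2.94, and those of Foxa1 were -2.21 and -2.02, all still called. Foxn4, which is known from frog embryos to act with Foxj1 in multiciliated cells, was not detected on the sorted arrays and read 0.0599 and 0.0601 in homogenates. Its difference was -1.27 ± 0.56 in myofibroblasts (adjusted p = 0.149) and -2.12 ± 0.56 in fibroblasts (adjusted p = 0.0525), neither called. With the sorted arrays below background, the bounds were no more than at least 1.49-fold and at least 1.40-fold. Of a list of 27 motile cilium genes, 24 had a named probe. Of 23 tested, 17 were lower in myofibroblasts than in homogenates and 13 were lower in fibroblasts, with 0 higher in either; the medians were -3.45 and -3.31, against -0.01 and 0.03 over all genes. The axonemal dynein gene Dnah5 was lower by 5.52 in myofibroblasts (-5.52 ± 0.32) and lower by 4.68 in fibroblasts (-4.68 ± 0.32). Spag6l, Ccdc113, Cfap52, Sntn and Dynlrb2 were detected on none of the sorted arrays, and Gmnc on no array. Among these genes 14 could be tested between the sorted groups, where Ccdc39 was lower in myofibroblasts (-2.54 ± 0.28) and Dnah11 was at least 8.05-fold higher.

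Foxm1 marked the myofibroblasts. Its relative signal was 1.89 and 0.966 in myofibroblasts, against 0.0453 and 0.00997 (not detected) in fibroblasts, and 0.134 and 0.127 in homogenates. Both myofibroblast arrays were above all others. The difference was 5.99 ± 0.75 from fibroblasts (adjusted p = 0.00808) and 3.37 ± 0.75 from homogenates (adjusted p = 0.0258). The first call was kept under all 18 alternative settings in which Foxm1 was tested, with values from 2.38 to 7.08, and the second was lost without any 1 of the myofibroblast or homogenate arrays (adjusted p up to 0.125). A second probe of Foxm1 gave 2.38 ± 0.52 from fibroblasts (adjusted p = 0.0353) and 3.499 ± 0.52 from homogenates (adjusted p = 0.00711), the same directions. By the brighter probe both fibroblast arrays lay below homogenates, with a difference of -2.62 ± 0.75 (adjusted p = 0.0660). The second probe went the other way, at 0.0395 (not detected) and 0.0625 in fibroblasts against 0.0141 and 0.0370 (neither detected) in homogenates, and was not tested there, so the order of these 2 groups is uncertain.

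Most listed mitotic genes known as Foxm1 targets were, like Foxm1, higher in myofibroblasts than in the other groups. Of a list of 21, all tested, 18 were higher in myofibroblasts than in fibroblasts and 0 lower, with a median of 4.41 against -0.06 over all genes. The kinesin gene Kif20a was higher by 5.75 ± 0.30, the survivin gene Birc5 by 5.57 ± 0.24, the cyclin gene Ccna2 by 5.08 ± 0.33 and the proliferation marker Mki67 by 4.73 ± 0.26. Leaving out the first myofibroblast array left 10 of them called. Against homogenates, 15 of 21 were higher in myofibroblasts and 0 lower, with a median of 2.51, and 8 were called without the second homogenate array. In fibroblasts, 0 of 18 tested were higher than in homogenates and 7 were lower, with a median of -1.82; 4 were called without the first homogenate array. The summed relative signal of the list was 106 and 94.5 in myofibroblasts, 12.1 and 9.91 in fibroblasts, and 16.1 and 16.5 in homogenates.

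**Figure D4:**
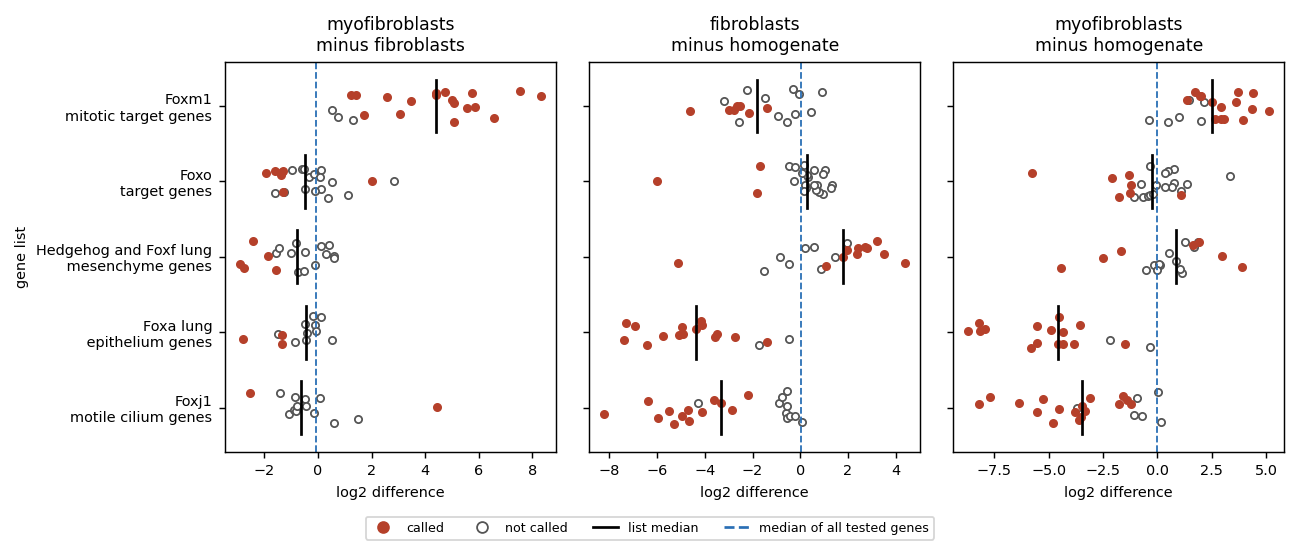
Log2 differences of the genes of 5 lists tied by known biology to forkhead factors, with 1 point per tested gene, filled where called (adjusted p under 0.05, limma); black bars are list medians and the dashed line the median of all genes tested. The Foxm1 mitotic list has its median at 4.41 in the left panel, and the epithelium and cilium lists have theirs at -4.36 and -3.31 in the middle panel.

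Foxo1, an effector of insulin and growth factor signalling, separated the 3 groups. Its relative signal was 0.747 and 0.700 in myofibroblasts, against 2.34 and 1.998 in fibroblasts, and 1.47 and 1.43 in homogenates. No 2 groups overlapped, with myofibroblasts lowest and fibroblasts highest. In single comparisons, 62.8% to 77.5% of all genes tested had no overlap. Myofibroblasts were lower than fibroblasts by 1.58 on the log2 scale (-1.58 ± 0.24, adjusted p = 0.0139) and lower than homogenates by 0.999 (-0.999 ± 0.24, adjusted p = 0.0320, a call lost with median scaling), while the difference of fibroblasts from homogenates was 0.58 ± 0.24 (adjusted p = 0.164). The second probe gave -1.12 ± 0.26 between the sorted groups (adjusted p = 0.0398) and -0.56 ± 0.26 between myofibroblasts and homogenates (adjusted p = 0.162). The call between the sorted groups was lost without either myofibroblast array or either homogenate array (adjusted p up to 0.0740), with only the 4 sorted arrays (adjusted p = 0.0512) and where the dimmest probe stood for every gene (-1.12, adjusted p = 0.0522). The promoter window of Foxo1 (plus strand of chr3:52268087-52268386, GRCm38.p6) is shown because this was the Foxo gene called between the sorted groups; capitals mark 3 CCAAT boxes (written ATTGG on this strand) and 5 GC boxes (GGGCGG or CCGCCC), of which an adjoining pair overlaps.
Foxo1: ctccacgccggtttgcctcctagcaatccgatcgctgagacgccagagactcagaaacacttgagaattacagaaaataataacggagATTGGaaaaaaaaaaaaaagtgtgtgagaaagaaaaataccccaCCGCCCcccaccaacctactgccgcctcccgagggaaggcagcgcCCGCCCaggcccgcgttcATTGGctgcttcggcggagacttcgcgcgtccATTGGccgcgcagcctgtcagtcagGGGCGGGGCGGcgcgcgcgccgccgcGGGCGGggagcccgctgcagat

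The other Foxo genes showed no call between the sorted groups. Foxo3 had a relative signal of 1.93 and 2.35 in myofibroblasts, 3.48 and 3.102 in fibroblasts, and 2.19 and 2.03 in homogenates. Its difference between myofibroblasts and fibroblasts was -0.63 ± 0.25 (adjusted p = 0.136), but its second probe read 0.81 ± 0.31 (adjusted p = 0.126), so the probes of Foxo3 differed in direction. Foxo4 read 0.0238 and 0.0419 in myofibroblasts and 0.0324 and 0.0376 in fibroblasts, none of them detected, against 0.0551 and 0.0979 in homogenates. Foxo6 read 0.00936 and 0.0171 (neither detected) in myofibroblasts and 0.0508 and 0.0108 (not detected) in fibroblasts, against 0.111 and 0.101 in homogenates. It was at least 2.63-fold lower in myofibroblasts than in homogenates (-3.07 ± 0.75, adjusted p = 0.0344), a call lost with median scaling, quantile normalization and normexp.

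Targets known from Foxo biology split between the sorted groups. Of 23 tested from a list of 25, 1 was higher in myofibroblasts than in fibroblasts and 6 were lower, with a median of -0.48 against -0.06 over all genes. The higher one was Cdkn1a, the p21 cell cycle inhibitor (2.01 ± 0.28). The lower ones included the autophagy gene Atg14 (-1.94 ± 0.27), the p27 inhibitor gene Cdkn1b (-1.60 ± 0.36) and the stress gene Sesn1 (-1.37 ± 0.34). None of the 6 was called without the first myofibroblast array. Against homogenates, 1 was higher and 6 lower of 24 tested in myofibroblasts, and 0 were higher and 3 lower of 23 tested in fibroblasts, beside 26.9% and 19.9% of all genes called either way. Without single arrays the 6 became 1 to 9, with 1 left without any one of the myofibroblast or homogenate arrays, and the 3 became 1 to 4, with 1 left without either homogenate array. Il7r, a Foxo target of lymphocytes, was among the genes called lower, at least 51.9-fold lower in fibroblasts than in homogenates; the lymphocyte genes Cd3g and Cd8a were detected on no sorted array. Among 19 kinases, phosphatases and partners upstream of Foxo, 18 were tested between the sorted groups. Prmt1 (1.37) and Akt1 (1.25) were higher in myofibroblasts and 0 were lower, beside 9.21% and 8.01% of all genes. The median of the 18 was -0.07, against -0.06 over all genes.

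The Foxk, Foxp1, Foxp4, Foxj2, Foxj3, Foxn2 and Foxn3 probes were detected on all 6 arrays. Foxk1 and Foxk2, which act in metabolism and autophagy, moved to opposite sides against homogenates in myofibroblasts. Foxk1 had a relative signal of 1.72 and 1.87 in myofibroblasts, 2.03 and 2.66 in fibroblasts, and 3.61 and 4.68 in homogenates, a difference of -1.20 ± 0.28 for myofibroblasts (adjusted p = 0.0303). Foxk2 read 0.738 and 0.729 in myofibroblasts, 0.348 and 0.389 in fibroblasts, and 0.348 and 0.251 in homogenates, a difference of 1.31 ± 0.27 for myofibroblasts (adjusted p = 0.0209). The direction of these differences was the same under each scaling, but the authors' deposited table ended the Foxk2 call (0.81, adjusted p = 0.0728) and median scaling the Foxk1 call. Between the sorted groups Foxk2 differed by 0.996 ± 0.27 (95% interval 0.32 to 1.67, adjusted p = 0.0605).

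Of the Foxp genes, some of which are known as repressors in airway epithelium, Foxp4 was higher in myofibroblasts than in whole lung. It read 1.29 and 1.05 in myofibroblasts, 0.412 and 0.918 in fibroblasts, and 0.353 and 0.291 in homogenates, with a difference of 1.86 ± 0.43 from homogenates (adjusted p = 0.0288; 1.36 and 0.0613 with the authors' deposited table). Foxp1 read 3.80 and 3.03 in myofibroblasts, 2.74 and 1.20 in fibroblasts, and 3.33 and 3.35 in homogenates, and its 2 probes gave 0.91 ± 0.44 and 1.10 ± 0.52 between the sorted groups (adjusted p = 0.195 and 0.186). Foxp3, the master gene of regulatory T cells, was level at 0.366 and 0.329 in myofibroblasts, 0.297 and 0.397 in fibroblasts, and 0.406 and 0.339 in homogenates. Of 16 listed lymphocyte genes, 12 were tested against homogenates: 8 were lower in myofibroblasts and 10 in fibroblasts, with 0 higher. The T cell gene Cd3g was at least 18.7-fold lower in myofibroblasts and at least 17.6-fold lower in fibroblasts, but Cd4 (-0.78 and -0.46) and Ikzf2 (-2.11 and 0.78) were not called. In myofibroblasts against fibroblasts 4 were tested, of which Tcf7 was higher in myofibroblasts (1.25 ± 0.28). The summed relative signal of the list was 4.50 and 4.06 in myofibroblasts, 5.52 and 4.50 in fibroblasts, and 33.91 and 35.96 in homogenates.

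Foxj2, Foxj3, Foxn2 and Foxn3, which are expressed in many tissues, had no call. Foxj2 read 2.87 and 3.29 in myofibroblasts, against 9.05 and 3.96 in fibroblasts, and 4.63 and 4.92 in homogenates, with a difference between the sorted groups of -0.96 ± 0.43 (adjusted p = 0.168). Foxj3 read 10.7 and 8.13 in myofibroblasts, 29.1 and 11.04 in fibroblasts, and 10.7 and 11.7 in homogenates (-0.94 ± 0.49, adjusted p = 0.224). Foxn3, a checkpoint gene, read 2.76 and 2.70 in myofibroblasts, 6.89 and 3.65 in fibroblasts, and 3.13 and 3.47 in homogenates (-0.88 ± 0.36, adjusted p = 0.144). In all 3, myofibroblasts lay below both fibroblast arrays, and the first fibroblast array stood above the second. Between the sorted groups, 63.1% of all genes tested did not overlap. Without the second fibroblast array the differences of Foxj2, Foxj3 and Foxn3 were -1.56, -1.64 and -1.34. Without the first they were -0.37, -0.24 and -0.42. Of the 31 forkhead genes detected on both fibroblast arrays, 19 were higher on the first, and the 9 more than 2-fold apart were Foxc2, Foxe3, Foxf1, Foxf2, Foxj2, Foxj3, Foxl1, Foxp1 and Foxp4, from 4.28-fold in Foxc2 to 0.45-fold in Foxp4. Foxn2 was close within groups, at 1.46 and 1.37 in myofibroblasts, 1.93 and 1.86 in fibroblasts, and 2.19 and 2.02 in homogenates, with a difference of -0.42 ± 0.23 between the sorted groups (adjusted p = 0.246).

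Forkhead genes known from organs other than the lung were read as well. Foxe3 had a relative signal of 0.403 and 0.506 in myofibroblasts, against 0.0931 and 0.198 in fibroblasts, and 0.228 and 0.201 in homogenates. It exceeded fibroblasts by 1.74 ± 0.41 (adjusted p = 0.0432), and the call was kept under 9 of 19 alternative settings. Its RefSeq neighbour Foxd2, with no protein-coding gene between them on chromosome 4, had a difference of -0.56 ± 0.52 in the same comparison (adjusted p = 0.473). Foxn1, the factor of thymic epithelium, read 0.0728 and 0.0495 in myofibroblasts, 0.107 and 0.114 in fibroblasts, and 0.147 and 0.144 in homogenates, lower in myofibroblasts than in homogenates (-1.28 ± 0.28, adjusted p = 0.0256), with no call under median scaling, quantile normalization or normexp.

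The ovary factor Foxl2 read 145 and 136 in myofibroblasts, 63.4 and 125 in fibroblasts, and 98.1 and 97.9 in homogenates, with no call. Whether this bright signal of a single probe came from Foxl2 RNA was not tested. Foxh1, a partner of Smad proteins in Nodal signalling, ranged from 2.54 to 4.98 over the arrays, and Foxi1, known from ionocytes, from 0.480 to 0.651. Foxe1, the thyroid factor, ranged from 0.103 to 0.285, Foxb2 from 0.0804 to 0.230, Foxr1 from 0.323 to 0.742 and Foxi3, a factor of ectoderm and teeth, from 0.0341 to 0.0754. None of these was called in a comparison.

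RefSeq promoter windows were at hand for 28 of the 44 forkhead genes, as 33 windows, among 32851 windows of all genes. Counting both strands, the GC box GGGCGG was in 24 of 33 forkhead windows (72.7%), against 35.7% of all windows, and the forkhead windows had a median GC content of 62.7%, against 52.7%. The CCAAT box was in 15 of 33 (45.5%), against 37.4%, and the letters TATAAA in 3 of 33 (9.09%), against 13.6%. The core forkhead motif GTAAACA was in 1 of 33 (3.03%), against 3.65%, and the Gli motif GACCACCCA in 0 of 33, against 0.253%. These are matches of letters in the windows and no test was made of them.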

How the data were processed

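RNA of 6 mouse lung samples was read on Agilent arrays (1 slide). Spot intensity was written to the deposited scanner files by Agilent Feature Extraction 12.0.3.1, per the submitters' processing notes; background had been subtracted, per the file headers. A further table deposited by the authors holds normalized intensity values, each column being the processed signal times 1 constant per array (5.46 and 5.17 for myofibroblasts, 6.79 and 6.93 for fibroblasts, 5.98 and 6.26 for homogenates); how these were set is not given in the sources used. Homogenates occupied a slide row of their own, and its part in their differences from sorted cells cannot be told apart.

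Of 56605 non-control probes (59305 spots), 32994 were named through the RefSeq mouse gene table by unversioned accession and 23611 were not. Log2 of the processed signal minus that of the array's 75th percentile was used; outlier spots were left out, spots of a probe averaged, and the probe brightest on average stood for a gene. Testing a gene required detection on each array of 1 compared group or both. limma 3.58.1 (R 4.3.3), with lmFit and eBayes, fitted all 6 arrays (3 residual degrees of freedom), with Benjamini-Hochberg adjustment per comparison. The scripts were tested on simulated data. Where every array of a group was below background, "at least" folds set the bright group's mean against the higher of the lowest detected signal and the probe's own. Every forkhead gene detected on both arrays of a group was described, except 1 that is not reported here; from each list, at most 4 called genes with the largest differences, detected on all arrays compared, were named, and a few others (bounds, undetected markers, Fendrr and Sftpc in further comparisons, Dnah11, Il7r, Cd3g, Cd4, Ikzf2, Itgam, Csf1r and uncalled epithelial genes) were picked after their values were seen. The members and lists were chosen with earlier results of these data known. Alternatives were other probes, filters, background corrections (normexp with offset 50 on median spot signals), scalings, thresholds, array weights, a replicate block and leaving out each array.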

Additional observations from a re-analysis of the deposited data

How the results depend on the processing

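Of the forkhead calls, those of Foxd1 and Foxm1 between the sorted groups and of Foxa1, Foxa2 and Foxj1 against homogenates in both sorted groups, with Foxd1 in fibroblasts, held under every alternative in which they were tested. Against 4 calls between myofibroblasts and fibroblasts, 2 were made with detection required in both groups, 2 with the dimmest probe, 2 with only the 4 sorted arrays, 2 at an adjusted p under 0.01 and 7 at one under 0.10; leaving out single arrays gave 2 to 12, the 12 without the second fibroblast array. Against 8 calls between fibroblasts and homogenates, 3 were made with detection required in both groups, 4 at an adjusted p under 0.01, and 4 to 13 without single arrays. Against 13 calls between myofibroblasts and homogenates, 3 were made at an adjusted p under 0.01 and 3 to 14 without single arrays. The cause was not tested, apart from the settings that test fewer genes or samples. The other settings stayed within 1.5 times these counts, and no called difference turned its sign. Deviations of same-numbered arrays correlated at 0.072, -0.0089 and 0.045 over 13998 genes, so they shared no strong shift. This cannot show whether same-numbered samples were collected or handled together. With a replicate block the counts were 4, 8 and 12, of which 3, 7 and 11 were among the calls without the block; Foxl1 was called in both myofibroblast comparisons (adjusted p = 0.0470 and 0.0183), Foxm1 was called lower in fibroblasts than in homogenates (adjusted p = 0.0326), and Foxe3, Foxd2, Foxf1 and Foxo1 each lost a call (adjusted p = 0.0507, 0.0626, 0.0577 and 0.0595). List counts were recomputed under the same alternatives after the data were seen. Between the sorted groups the Foxm1 list gave 9 to 19 genes higher and the Foxo and Hedgehog lists 0 to 10 and 0 to 7 lower; against homogenates the epithelium and cilium lists gave 9 to 16 and 8 to 20 lower in myofibroblasts, and 11 to 16 and 3 to 15 in fibroblasts. Probes under background carry bounds only, and normexp, with its offset, shrank the differences of dim probes.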
